A study of Mus musculus with 24 samples.

Results

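The 9 enzymes that carry squalene to cholesterol were followed across whole livers of mice on a high-fat diet and a control diet. They were chosen by symbol (Sqle, Lss, Cyp51, Tm7sf2, Msmo1, Nsdhl, Hsd17b7, Sc5d and Dhcr7), and all 9 were among the 17913 genes tested, of 56205 in the count table. The animals were C57BL/6J mice, both male and female, and 12 livers per diet were sequenced after 20 weeks. The labels name no transgene or deletion in either group. The high-fat diet bears the label FFD. The methods of the study describe, for mice of this strain, a diet rich in palm oil and fructose with added cholesterol and its matched control, and do not link it to that label by name. Libraries were poly(A)-selected from total RNA of whole liver. The diet contrast over all 24 libraries was known when these enzymes were picked, so their diet differences are given as a description, without a test.

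Cholesterol is built from acetyl-CoA through mevalonate and farnesyl units to squalene, and the enzymes after squalene turn this chain into a sterol, then trim and rearrange it in the endoplasmic reticulum. The genes of the pathway are known targets of SREBP-2, a membrane-bound transcription factor that is released when sterols in the endoplasmic reticulum are scarce and held back by SCAP and INSIG proteins when they are plentiful. The liver both makes cholesterol and receives it from the diet, and it passes the surplus to bile, bile acids and lipoproteins.

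Promoter sequence was at hand for 8 of the 9 enzymes, all but Sqle, from RefSeq (GRCm38.p6). The windows are the 250 bases before each annotated start, with 3 alternative starts for Dhcr7. All 8 enzymes had a CCAAT box, the letters bound by NF-Y, in at least 1 window. For Dhcr7 it was only in the window at chr7:143829964-143830213, which lies inside the annotated gene. All 250 bases of that window and of the Tm7sf2 window lay in annotated exons, as did 214 bases for Msmo1. For the other 5 enzymes the overlap with exons ran from 0 (Sc5d) to 112 bases (Nsdhl). The match nearest the start is shown with 10 bases on each side, because a CCAAT box was found before each of these enzymes. Each sequence is read 5′ to 3′ on the strand that spells CCAAT, which is in capitals.
Lss: gcgagctcggCCAATcagagcatca
Cyp51: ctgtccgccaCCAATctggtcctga
Tm7sf2: agcacagtagCCAATcagcgctggg
Msmo1: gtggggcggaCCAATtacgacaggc
Nsdhl: atgattttgcCCAATgaggctagtc
Hsd17b7: cgcacctcgaCCAATcaaggctcgg
Sc5d: aggcagccggCCAATcagcagccgg
Dhcr7: tcacagacgaCCAATcggaagtgga

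These stretches lie at Lss chr10:76531533-76531557 (-), Cyp51 chr5:4104712-4104736 (-), Tm7sf2 chr19:6067883-6067907 (+), Msmo1 chr8:64733619-64733643 (-), Nsdhl chrX:72918491-72918515 (-), Hsd17b7 chr1:169969203-169969227 (+), Sc5d chr9:42264310-42264334 (+), Dhcr7 chr7:143830155-143830179 (-), with the strand that was read in parentheses. For Cyp51 and Msmo1 that strand is the strand of the gene, and for the other 6 enzymes it is the opposite one. CCAAT on either strand was present in 33.8% of all 32851 windows and in 39.7% of 12318 tested genes that had a window. GGGCGG, the core of an Sp1 box, was also found before all 8 enzymes, against 32.7% of all windows and 58.9% of the tested genes. The windows of the enzymes ran from 44.8% to 73.6% GC, where the median of all windows was 52.4%. TCACNCCAC, a form of the sterol regulatory element, was found before none of the 8 (1.05% of all windows). TCACCTCA, a string looked for only after the sequences had been read, was present before Cyp51 and Hsd17b7 and in 0.947% of all windows. A match of letters is not a bound site, and no binding was measured in these livers. The window of Sc5d (chr9:42264301-42264550, minus strand) is given whole, since it overlaps no annotated exon and belongs to the enzyme with the smallest diet difference. CCAAT, here on the opposite strand as ATTGG, is in capitals.
Sc5d: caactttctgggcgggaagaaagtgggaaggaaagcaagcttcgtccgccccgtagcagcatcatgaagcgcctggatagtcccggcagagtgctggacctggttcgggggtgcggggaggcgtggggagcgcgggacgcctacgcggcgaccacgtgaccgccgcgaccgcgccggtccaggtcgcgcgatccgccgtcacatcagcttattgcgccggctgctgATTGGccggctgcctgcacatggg

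Library totals ranged from 14468418 to 22112552 counts. Xist, the RNA that coats the inactive X chromosome, split the libraries into 12 with 2664 to 6285 counts and 12 with 0 to 3 counts. The Y-linked gene Ddx3y was at 0 in the first set and at 448 to 1016 counts in the second. These are called the Xist-high and Xist-low libraries. Each diet had 6 of each, with replicate numbers 1 to 6 in the Xist-high and 7 to 12 in the Xist-low set. The labels give the sex of no library, so the sets are not named by sex, and the set cannot be told apart from whatever the numbers mark. Levels are CPM, counts scaled to the library size after TMM correction, and the spread over livers is the only spread behind the p-values. Hepatocyte markers (Alb, Ttr, Apoa1, Apob, Ahsg, Fgb, Cps1 and Hnf4a) were abundant in every library. Their summed level was 88300 to 141000 CPM on the control diet and 43400 to 101000 CPM on the high-fat diet. Of the 8 tested, 6 were called lower on the high-fat diet (median log2 fold change -0.63). The 6 markers of monocyte-derived macrophages were all called higher, and their sum was 123 to 947 CPM against 45 to 161 CPM on the control diet. Of the markers of stellate cells or fibroblasts 5 of 7 were called higher, with sums of 346 to 888 against 125 to 402 CPM, and of cholangiocytes 3 of 4. No marker of these lists was at 0 in every library. Fewer hepatocytes and less RNA per hepatocyte cannot be told apart in whole liver, and the part of cell composition in the enzyme differences was not tested.

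All 9 enzymes were lower in high-fat livers, from Sqle at 12.8% of the control level to Sc5d at 65.2%. Their median log2 fold change was -1.55, beside -0.03 for all genes tested. Each passed the thresholds that the study used (in edgeR, an adjusted p up to 0.01 with a log2 fold change beyond 0.5 in size), which 4.99% of all genes passed downward and 13.2% upward. With library totals as the only scaling, which moved the median of all genes to 0.26, 226 genes were called lower and 3827 higher, in place of 894 and 2372. Under that scaling 8 of the 9 enzymes were still called lower, and Sc5d was not (log2 fold change -0.35).

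Sqle (ENSMUSG00000022351, chr15:59315077-59331192, plus strand) encodes squalene epoxidase, which adds the first oxygen and is a control point of the pathway. It had 12.1 to 89.7 CPM on the control diet (median 38.2) and 1.44 to 19.7 CPM on the high-fat diet (median 4.34), that is 119 to 1584 and 27 to 395 counts. All but 1 of the high-fat libraries were below the lowest control library, and that one was replicate 4. The log2 fold change was -2.97 (SE 0.39, n = 12 per diet), the largest of the 9. Sqle was also the most variable of them among control livers, with an SD of 0.93 on the log2 scale.

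Lss (ENSMUSG00000033105, chr10:76531588-76557138, plus strand) encodes lanosterol synthase, which closes the epoxide into the sterol rings. Control livers had 15.7 to 64.8 CPM (median 37.1) and high-fat livers 8.53 to 42.3 CPM (median 14.8). The groups overlapped, with 8 high-fat libraries below the lowest control library, and the log2 fold change was -1.04 (SE 0.24). Lss shares 381 exon bases with 4930483K19Rik on the opposite strand, a gene with 17 counts in all libraries together.

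Cyp51 (ENSMUSG00000001467, chr5:4081145-4104746, minus strand), Tm7sf2 (ENSMUSG00000024799, chr19:6062821-6068373, minus strand) and Msmo1 (ENSMUSG00000031604, chr8:64718139-64733792, minus strand) act next, on the methyl groups of lanosterol. CYP51 starts removal of the methyl group at carbon 14, TM7SF2 is a reductase of the double bond that this leaves, and MSMO1 oxidises the methyl groups at carbon 4. Cyp51 was at 33.9 to 127.5 CPM on the control diet (median 85.0) and 4.90 to 42.4 CPM on the high-fat diet (median 18.0), with a log2 fold change of -2.06 (SE 0.26). Its groups met only through high-fat replicate 4, which lay above the lowest control libraries. It shares 166 exon bases with Akap9 on the opposite strand, a gene with 11553 counts in all libraries together against 21747 for Cyp51. Akap9 had a log2 fold change of -0.36 (SE 0.09, adjusted p = 0.00212 in edgeR), short of the fold threshold.

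Tm7sf2 was the only enzyme whose groups did not overlap, at 116.6 to 240.2 CPM on the control diet (median 149.4) and 21.2 to 73.1 CPM on the high-fat diet (median 30.9). Separation of this kind in the lower direction was seen in 0.402% of all genes. The log2 fold change of Tm7sf2 was -1.99 (SE 0.22). It shares 532 exon bases with Vps51 on the same strand, and Vps51 itself differed little (log2 fold change 0.06, SE 0.07, adjusted p = 0.48 in edgeR). Msmo1 had 37.01 to 131 CPM in control livers (median 59.0) and 11.5 to 59.2 CPM in high-fat livers (median 24.3), a log2 fold change of -1.31 (SE 0.25). Here 9 of the 12 high-fat libraries were below every control library.

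Nsdhl (ENSMUSG00000031349, chrX:72918557-72958514, plus strand) and Hsd17b7 (ENSMUSG00000026675, chr1:169949535-169969241, minus strand) encode the dehydrogenase and the keto reductase that complete the loss of the methyl groups at carbon 4. Nsdhl ranged from 14.9 to 62.1 CPM on the control diet (median 39.6) and from 4.26 to 21.8 CPM on the high-fat diet (median 10.7), a log2 fold change of -1.71 (SE 0.25). Hsd17b7 ranged from 18.3 to 57.3 CPM (median 45.2) and from 5.96 to 26.8 CPM (median 14.9), a log2 fold change of -1.55 (SE 0.21). In Nsdhl 10 and in Hsd17b7 9 of the 12 high-fat libraries lay below the lowest control library.

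The last enzymes reshape the double bonds of the B ring. Sc5d (ENSMUSG00000032018, chr9:42251595-42264256, minus strand) encodes the desaturase that makes the double bond at carbon 5, and Dhcr7 (ENSMUSG00000058454, chr7:143823145-143848410, plus strand) the reductase that turns 7-dehydrocholesterol into cholesterol. Sc5d had 285 to 462.5 CPM on the control diet (median 339) and 126 to 442 CPM on the high-fat diet (median 196), a log2 fold change of -0.62 (SE 0.17). Its 9 high-fat libraries under the lowest control library stood beside 1 at 442 CPM, near the top of the control range. Dhcr7 had 31.5 to 130 CPM (median 83.4) and 21.8 to 82.6 CPM (median 36.2), a log2 fold change of -1.09 (SE 0.21). Only 4 high-fat libraries were below its lowest control library, replicate 4, although all 12 were below the control median.

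**Figure D1:**
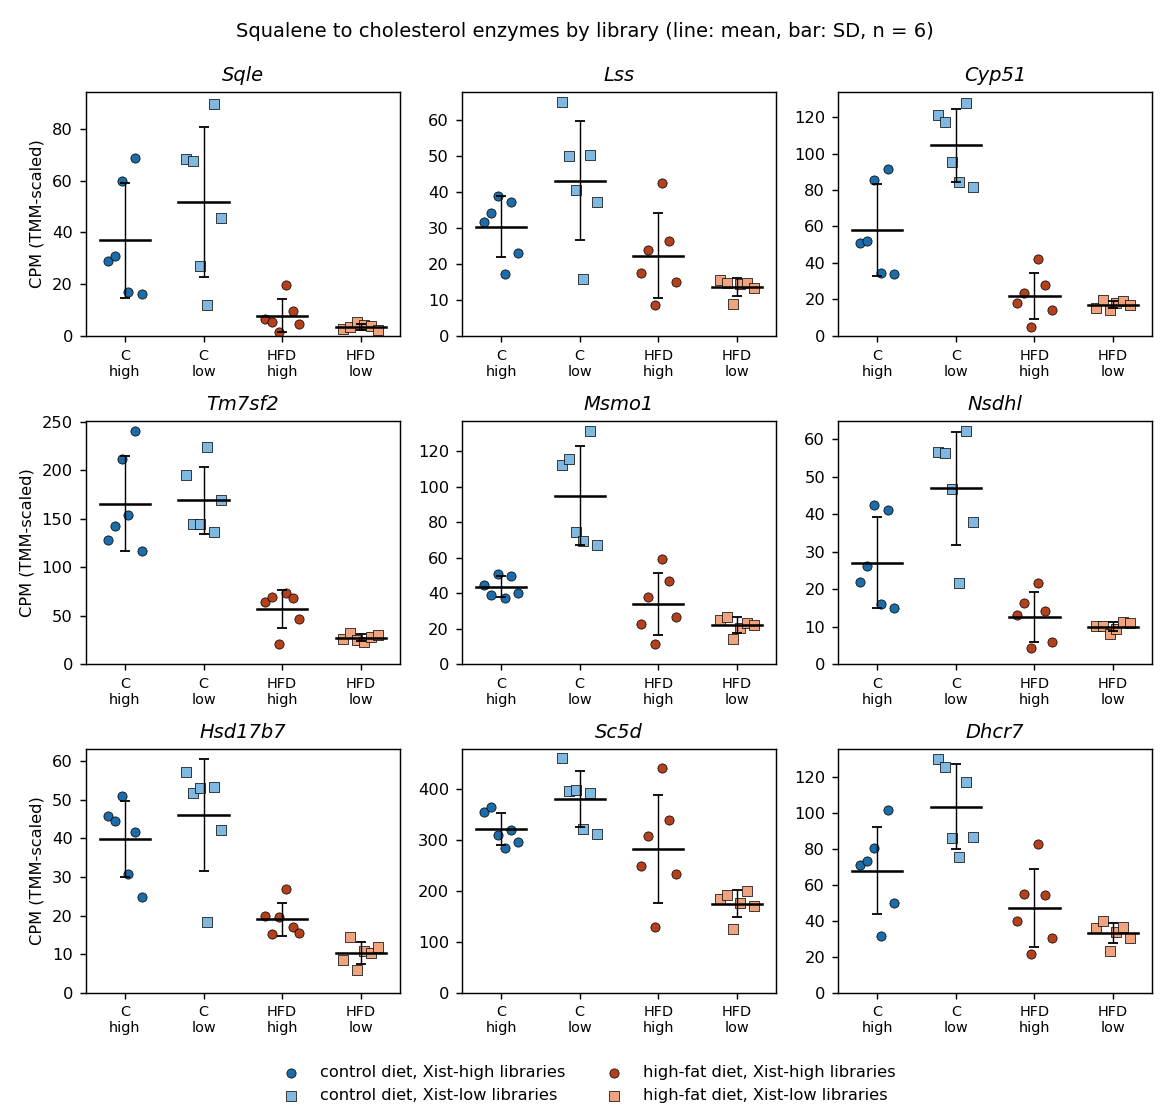
Level of each enzyme in every library (vertical axes, CPM after TMM scaling), by diet (C, control; HFD, high-fat) and Xist set (high, low); lines are means and bars SD of 6 libraries. In the Xist-low libraries the diets do not overlap for any of the 9 enzymes, while in the Xist-high libraries they are apart only for Tm7sf2.

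Per kilobase of transcript, the control livers held most Tm7sf2 (114 CPM per kb, SD 27.6) and Sc5d (73.4, SD 11.1), with Msmo1 at 33.9, Dhcr7 at 30.5, Cyp51 at 20.7, Nsdhl at 17.1, Sqle at 16.1, Hsd17b7 at 9.31 and Lss at 7.86 CPM per kb. The neighbours Msmo1 and Dhcr7, and the run from Cyp51 through Nsdhl to Sqle, differed by less than their SDs of 7.68 to 16.1. On the high-fat diet Sc5d led at 47.9 CPM per kb, Tm7sf2 followed at 28.7, and Sqle was lowest at 2.06. Poly(A)-selected counts with a single transcript length per gene make this order approximate.

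The livers also differed from each other within a diet. Among control livers the SD on the log2 scale was 0.49 to 0.93 for 7 of the enzymes, 0.34 for Tm7sf2 and 0.21 for Sc5d, where the median over 4426 genes of like level was 0.27. One high-fat library, replicate 4, had the highest level of its diet for all 9 enzymes. Replicate 3 had the lowest level for 7 of them, and replicate 9 for Hsd17b7 and Sc5d. Without replicate 4, left out after seeing that it was the highest, Sqle, Cyp51 and Tm7sf2 showed no overlap between the diets, as did 0.469% of all genes.

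The diet difference was also read within each Xist set. In a model of the 4 diet-by-set groups, all 9 enzymes were called lower on the high-fat diet in the Xist-low set, with log2 fold changes from -3.86 (Sqle, SE 0.52) to -1.12 (Sc5d, SE 0.19), where 10.5% of all genes were called lower. All 9 also showed no overlap between the diets there, as did 9.66% of all genes. In the Xist-high set 4 enzymes were called lower, Sqle (-2.24, SE 0.48), Tm7sf2 (-1.54, SE 0.22), Cyp51 (-1.41, SE 0.31) and Hsd17b7 (-1.06, SE 0.23), where 0.854% of all genes were. The other 5 ran from -1.10 (Nsdhl, SE 0.31) to -0.18 (Sc5d, SE 0.18). Only Tm7sf2 was without overlap in that set (2.39% of all genes), and without high-fat replicate 4, the highest library of every enzyme, 4 enzymes were (2.8% of all genes). These within-set values use the livers of the known contrast and are a description.

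**Figure D2:**
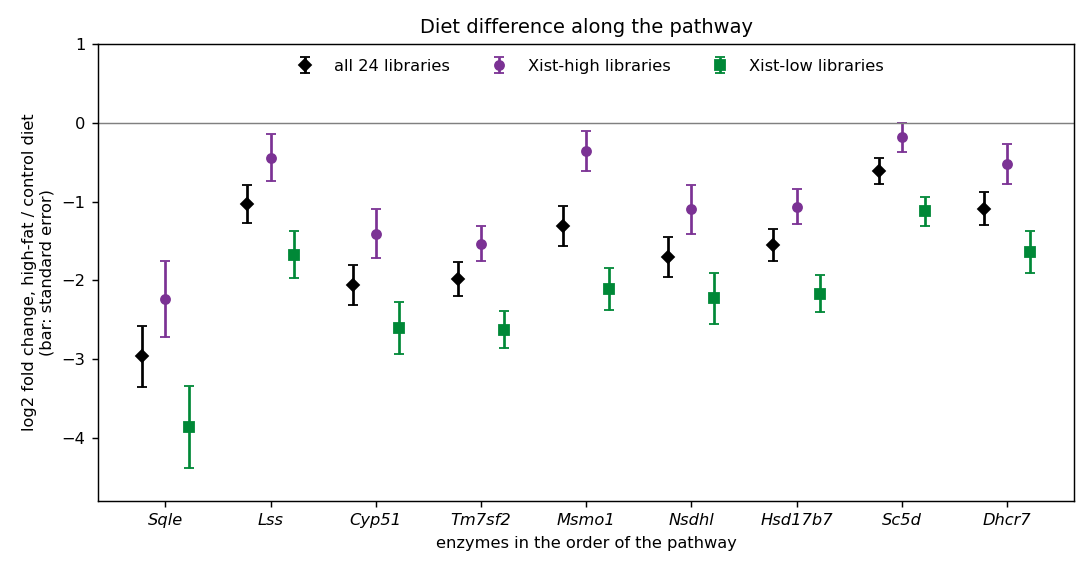
Log2 fold change of high-fat over control diet (vertical axis, bar: standard error) for the 9 enzymes in pathway order, in all 24 libraries and in each Xist set. For each enzyme the Xist-low value is the lowest of the 3, from -3.86 for Sqle to -1.12 for Sc5d.

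Whether the diet effect differed between the sets was tested directly, as the log2 fold change in Xist-high minus that in Xist-low livers, by the quasi-likelihood test of edgeR with adjustment after Benjamini and Hochberg. It was above 0 for all 9 enzymes, from 0.94 to 1.75 with a median of 1.13, beside 0.03 for all genes. Msmo1 passed the thresholds, at 1.75 (SE 0.36, adjusted p = 0.00295 in edgeR), where 1.47% of all genes passed in that direction and 2.57% in the other. Its 6 Xist-low high-fat libraries had 14.4 to 26.5 CPM and its 6 Xist-low control libraries 67.2 to 131 CPM, whereas the Xist-high ranges of 11.5 to 59.2 and 37.01 to 50.8 CPM overlapped. Across the alternative fits the adjusted p of Msmo1 stayed between 9.63e-05 and 0.00974. Sc5d, Tm7sf2, Hsd17b7 and Dhcr7 had adjusted p-values of 0.0214, 0.0237, 0.0263 and 0.0487 in edgeR, and Lss, Cyp51, Nsdhl and Sqle of 0.0602 to 0.129. The 8 hepatocyte markers were also above 0 in this difference, with a median of 0.42, and the 6 markers of monocyte-derived macrophages were below 0, with a median of -1.40. Their part in the difference of the enzymes was not tested. A missed threshold does not show that their diet effects were alike in the sets. Without high-fat replicate 3, Cyp51 (adjusted p = 0.00939), Tm7sf2 (0.00119) and Sc5d (0.00112) passed as well in edgeR, and without control replicate 10 Hsd17b7 did (0.00241). Among the fits without a single library, leaving out high-fat replicate 4 gave the smallest difference for every enzyme but Tm7sf2 and Hsd17b7. It was then 1.10 for Sqle, 0.89 for Cyp51 and 0.77 for Sc5d, against 1.63, 1.195 and 0.94 with all libraries.

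Averaged over the diets, the sets did not differ in any enzyme at the thresholds in edgeR, nor with limma-voom or DESeq2, while 2 enzymes had an unadjusted p under 0.05 and 5.4% of all genes were called. Tm7sf2 came nearest, higher in the Xist-high set by 0.52 on the log2 scale (SE 0.15, adjusted p = 0.0239 in edgeR), and it passed without high-fat replicate 3 (0.60, adjusted p = 0.000794 in edgeR). Within the control diet all 9 differences pointed to lower levels in Xist-high livers, and Msmo1 passed at -1.13 (SE 0.26, adjusted p = 0.00387 in edgeR), with the 6 Xist-high livers all below the 6 Xist-low livers. Of all genes, 2.24% passed in that direction, and the share with such a separation of the sets was not counted. The call of Msmo1 was lost at an adjusted p of 0.0101 to 0.0108 in edgeR when control replicate 2, 4, 6, 7, 8 or 11 was left out.

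Within the high-fat diet all 9 differences pointed the other way, to higher levels in Xist-high livers. Leaving out high-fat replicate 4 shrank those of Cyp51 and Nsdhl from 0.35 and 0.33 to 0.04 and 0.10 on the log2 scale. With all libraries, Tm7sf2 (1.06, SE 0.22, adjusted p = 0.00189) and Hsd17b7 (0.90, SE 0.23, adjusted p = 0.00914) passed in edgeR, beside 3.42% of all genes. In Tm7sf2 the Xist-high livers had 21.2 to 73.1 CPM and the Xist-low livers 23.2 to 32.1 CPM, and 5 of the 6 Xist-high livers lay above all Xist-low livers. For Hsd17b7 the ranges were 15.3 to 26.8 and 5.96 to 14.4 CPM, without overlap, a separation not counted over all genes. Its call was lost in 16 of the 24 fits that left out a single library, with a highest adjusted p of 0.032 among them in edgeR, and the libraries are named with the other settings.

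The 9 enzymes varied together from liver to liver. After the means of the 4 diet-by-set groups had been subtracted, the 36 pairs had a median Pearson's r of 0.78 over the 24 libraries, from 0.02 (Tm7sf2 and Hsd17b7) to 0.90 (Msmo1 and Sc5d). All livers share their library scaling in this measure, and the median was 0.81 with library totals alone. Sqle was set against each of the other 8 enzymes and against 8 genes of mevalonate synthesis and sterol sensing, with 100000 two-sided permutations within the groups and Benjamini-Hochberg adjustment over the 16 relations. Of these, 14 passed an adjusted p of 0.05, among them 7 of the 8 enzymes. Among the enzymes r was highest for Nsdhl at 0.85 (permutation p = 4e-05, adjusted p = 0.00016, Spearman's rho = 0.75, permutation p = 0.00037, adjusted p = 0.000987). It was lowest for Tm7sf2 at 0.46 (permutation p = 0.0688, adjusted p = 0.0688, rho = 0.33, permutation p = 0.162, adjusted p = 0.162). Sc5d passed by r (0.58, permutation p = 0.0099, adjusted p = 0.0113) and not by rho (0.40, permutation p = 0.0742, adjusted p = 0.0848).

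Leaving out the libraries farthest from the median of Sqle, control replicate 10 and high-fat replicate 3, left r at 0.76 for Nsdhl and 0.39 for Sc5d. The relation did not hold in every group. In the Xist-low high-fat livers, where Sqle was down to 51 to 130 counts, r with Sqle was negative for all 8 enzymes, from -0.19 (Cyp51) to -0.79 (Nsdhl). One library, high-fat replicate 9, had the most Sqle of these 6 livers (130 counts, 5.495 CPM). By CPM it had the least of every other enzyme but Tm7sf2, with the highest TMM factor of all libraries (1.34). By counts its Cyp51 (338, against 314 in replicate 7) and Nsdhl (193, against 187 in replicate 8) were not the lowest. The relation in this group without that library was not tested. In the 6 Xist-high high-fat livers r with Sqle was 0.50 to 0.96, and in the Xist-high controls 0.301 to 0.999. In the Xist-low controls it was 0.56 to 0.91 for 7 enzymes and -0.605 for Tm7sf2.

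**Figure D3:**
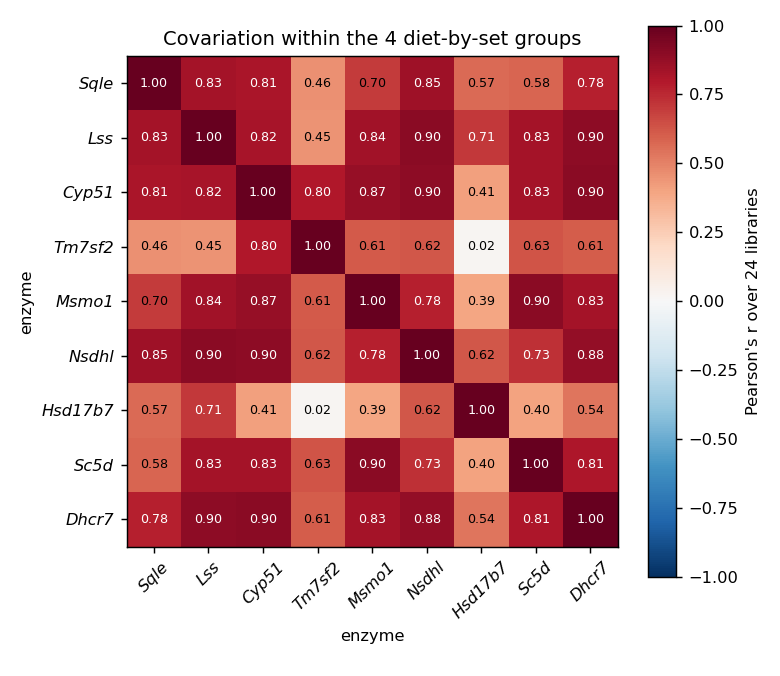
Pearson's r between the enzymes (both axes, pathway order) over 24 libraries after subtraction of the 4 diet-by-set means, of log2(CPM + 1). Red stands for positive r, and the lowest of the 36 pairs is Tm7sf2 with Hsd17b7 at 0.02.

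Of 11164 genes with a mean of at least 50 counts, those whose residuals were most like the mean of the enzymes included Rdh11 (r = 0.95), Idi1 (0.93), Acaca (0.92), Elovl6 (0.92), Fasn (0.92), Acat2 (0.92), Pnpla3 (0.91), Acss2 (0.91) and Fdps (0.91). Idi1, Acat2 and Fdps encode enzymes of the mevalonate arm, and Acaca, Fasn, Elovl6 and Acss2 enzymes of fatty acid and acetyl-CoA synthesis. Genes acting beside the 9 enzymes after squalene were spread widely in this order, with Erg28 at rank 1557 (0.41), Ebp at rank 5669 (0.01) and Lbr at rank 9770 (-0.40). These likenesses are descriptions over the same 24 libraries.

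Other genes of the pathway were read from lists that an earlier look at these data had partly shaped. In the mevalonate arm 8 of 9 genes were called lower on the high-fat diet by edgeR and none higher, with a median log2 fold change of -1.28. Idi1, the isomerase that makes dimethylallyl diphosphate, had 27.2 to 91.5 CPM on the control and 3.30 to 23.2 CPM on the high-fat diet, without overlap (-2.53, SE 0.26, adjusted p = 2.08e-07 in edgeR). Fdps (-1.87, SE 0.35), Mvd (-1.40, SE 0.30) and Pmvk (-1.37, SE 0.22) fell too. Fdft1, the squalene synthase just before Sqle, fell by 0.51 (SE 0.12, adjusted p = 0.00172 in edgeR). Hmgcs1 had a log2 fold change of -0.42 (SE 0.21, adjusted p = 0.103 in edgeR).

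The 4 further genes after squalene had a median log2 fold change of -0.47. Ebp, the sterol isomerase (-0.77, SE 0.16, adjusted p = 0.000425), and Erg28, a scaffold of the demethylation complex (-0.61, SE 0.10, adjusted p = 4.86e-05), were called lower in edgeR. Lbr, whose sterol reductase activity overlaps that of TM7SF2, had -0.33 (SE 0.13, adjusted p = 0.0467 in edgeR). None of the 5 electron donors was called in edgeR or limma-voom, with 1 at an unadjusted p under 0.05, and Por, which feeds electrons to CYP51 and squalene epoxidase, had -0.24 (SE 0.21, adjusted p = 0.39 in edgeR).

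In sterol sensing and LDL uptake 5 of 9 genes fell in edgeR, among them Stard4 (-1.33, SE 0.20), Insig1 (-0.83, SE 0.23) and Scap (-0.69, SE 0.12). Srebf2, the gene of SREBP-2 itself, missed the threshold (-0.31, SE 0.10, adjusted p = 0.0162 in edgeR). Of 10 genes of sterol export and esterification 3 rose, Abcg1 (1.81, SE 0.15), Soat1 (1.22, SE 0.21) and Abcg5 (0.74, SE 0.16), and Lcat fell by 0.52 (SE 0.14). Abcg8, the partner of Abcg5 in the bile exporter, had 0.34 (SE 0.16, adjusted p = 0.0924 in edgeR). In bile acid synthesis Cyp7b1 (-2.21, SE 0.57) and Slc27a5 fell, 2 of 8 genes. Within the Xist-low set their log2 fold changes were -2.73 (SE 0.25) and -1.22 (SE 0.16). Within the Xist-high set they were 0.45 (SE 0.25) and -0.12 (SE 0.16). Cyp7a1, the rate-limiting enzyme of the classic route, had -0.03 (SE 0.30, adjusted p = 0.954 in edgeR) over all libraries. With library totals as the only scaling, these counts were smaller for the genes that fell: 5 in the mevalonate arm, 0 of the further genes after squalene, 2 in sensing and uptake and 0 in bile acid synthesis.

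**Figure D4:**
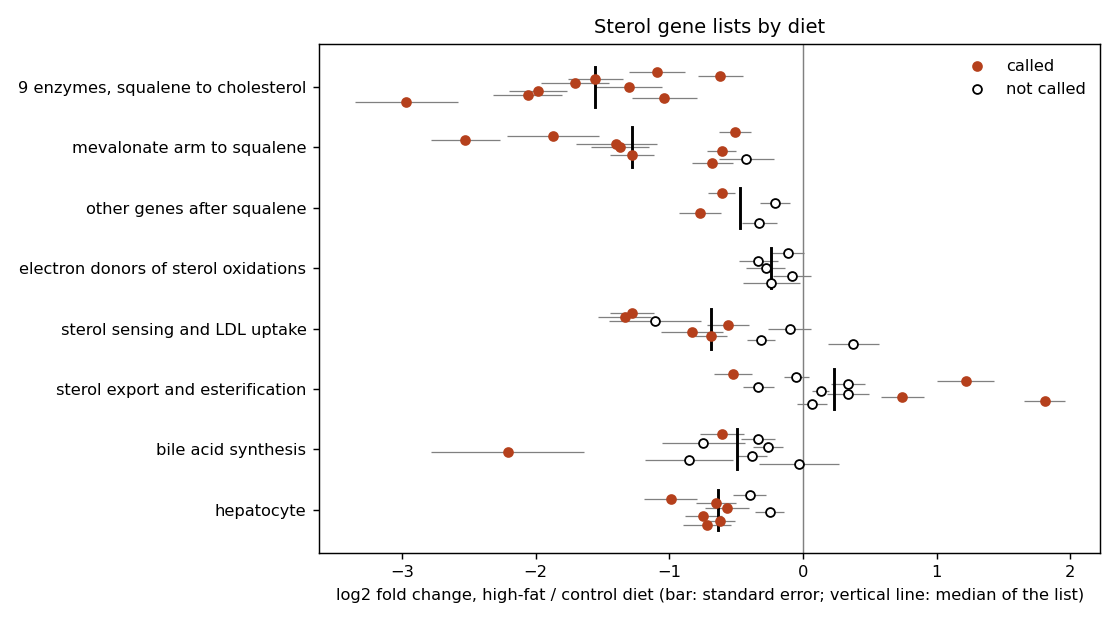
Log2 fold change of high-fat over control diet (horizontal axis, bar: standard error) for each gene of the sterol lists and the hepatocyte markers, with filled points for called genes and a vertical line at each median. The median is -1.55 for the 9 enzymes, -1.28 for the mevalonate arm and -0.47 for the 4 further genes after squalene. The enzymes were picked with this contrast known, so the order of the lists is a description.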

How the data were processed

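RNA-seq of whole liver was analysed for 12 high-fat diet and 12 control diet mice. The authors deposited 1 table of raw counts, whole numbers per Ensembl gene and library without normalization. The submitters' processing notes name bcl2fastq, STAR 2.7.3a and the build mm10. The counting program, its strand setting and its annotation are not given in the sources used here, so reads shared by overlapping genes may be split. Diets came from the labels, and 0 columns of library values were set aside. Symbols, coordinates and the length of the longest principal transcript came from GENCODE M21, which named 51745 of the 56205 gene IDs. One hepatocyte symbol, Tf, found no match.

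The deposited counts were modelled with edgeR 4.0.16 (R 4.3.3), using TMM factors and the quasi-likelihood F test. Only genes that had 1 count or more in 12 libraries or more entered, 17913 in all, and p-values were adjusted after Benjamini and Hochberg over them. Standard errors were taken as the log2 fold change without its sign over root F. The diet fit had no covariate, and a 4-group fit held diet and Xist set, split at 1000 Xist counts. The study's own thresholds defined a call, with an adjusted p up to 0.01 and a log2 fold change beyond 0.5 in size. Correlations used log2(CPM + 1). TMM factors ranged from 0.679 in control replicate 10, the library of lowest depth, to 1.34 in high-fat replicate 9. No pair of libraries agreed within counting noise (lowest chi-square per degree of freedom 10.1).

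Named genes were the enzymes, up to 4 called genes per list with the largest change, a set of genes the pathway turns on, and the 10 most alike in covariation. Genes that overlap an enzyme, and genes set apart by the difference between the sets, were named after their values were seen. The enzymes, lists, Xist split and alternatives were chosen with earlier results of these data known. Alternatives were DESeq2 1.42.0, limma-voom (limma 3.58.1), other scalings, filters and thresholds, the replicate number as a block, the Xist set as a covariate, and leaving out libraries. The tests were run on simulated data first. Single values of some genes in the lists are not reported here.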

Additional observations from a re-analysis of the deposited data

Results flagged for a closer look

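In the Xist-low high-fat livers, Lss stood at 8.88 CPM in replicate 9, apart from 13.3 to 15.5 CPM in the other 5 livers of that group. This was the only library set apart by Dixon's criterion among 36 groups of 6 livers, and chance sets apart about 1 in 20 such groups.

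The diet effect differed between the Xist sets for 9 genes of the enzymes and the sterol lists, by the direct test in edgeR (Xist-high minus Xist-low, log2 scale). Msmo1 at 1.75 was the only 1 of the 9 enzymes, and Stard4, a sterol carrier, was at 1.28. In export and esterification Abcg1 was at -1.01 and Soat1 at -1.45, so both rose less in the Xist-high livers. In bile acid synthesis all 8 genes were above 0 and 5 passed the thresholds, Cyp7b1 at 3.18, Cyp8b1 at 2.21, Slc27a5 at 1.10, Akr1d1 at 1.10 and Cyp27a1 at 0.75. Cyp7b1 had 156 to 389 CPM in Xist-low and 8.80 to 17.4 CPM in Xist-high control livers, and 19.1 to 56.4 and 15.5 to 21.4 CPM on the high-fat diet.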

How the results depend on the processing

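No result changed direction among those called, and all 9 enzymes were called lower on the high-fat diet in each of the 24 fits without a single library. A fit to the 12 Xist-high libraries alone, with its own filter, called 3 of the enzymes lower, where 0.896% of 18071 genes were. For the differences that involve the Xist sets, the share of all genes was counted in the main fit only. The number called for the difference of the diet effect between the sets was 4 with DESeq2, 1 to 4 when single libraries were left out, and 3 without high-fat replicates 3 and 4, which were chosen as the extreme libraries after seeing the data. For the set difference it was 0 to 1 without single libraries. On the control diet it was 0 with library totals and 0 to 1 without single libraries. On the high-fat diet it was 1 with library totals, DESeq2's size factors, limma-voom or at least 10 counts in every library, and 1 to 3 without single libraries. Hsd17b7 lost its call there without high-fat replicate 1, 2, 3, 4, 5, 7, 9, 10, 11 or 12 or control replicate 1, 2, 5, 8, 9 or 12. Library totals gave 5 lower in the mevalonate arm, 0 of the further genes after squalene, 2 lower and 1 higher in sensing and uptake, 0 lower and 5 higher in export and esterification, and 0 lower in bile acid synthesis, where limma-voom, added after seeing the data, gave 1. The causes were not tested.

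Replicate numbers are shared by the diets. The deviations of equally numbered libraries from the mean of their diet correlated at -0.0961 to 0.578, over 0.1 in 11 of 12 pairs. Such libraries share an Xist set, and the set difference was left in these deviations. Of the high-fat libraries, 2 correlated best with their own number, so the numbers were not taken as pairs. With the replicate number as a block, 9 enzymes were called lower and 0 higher. At 27 to 395 counts in high-fat livers, Sqle has the least depth of the 9, and differences among those livers carry a larger counting error.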
